A study of Drosophila melanogaster with 12 samples.

Results

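Heads of newly eclosed adult male Drosophila melanogaster lacking Nab2 were compared with heads of control males, using 6 of the 12 libraries of the series. The 3 null libraries came from males carrying the Nab2ex3 allele and the 3 control libraries from males carrying Nab2pex41, which the labels call wild type. Each library was made from total RNA of 60 pooled heads, depleted of ribosomal RNA. The labels do not say whether the pools of a group came from separate cultures, so p-values measure the spread between these pools. The other 6 libraries, from females of the same genotypes, entered the same model and were used for a test of whether the null effect differed between the sexes. All 17737 genes of the count files were considered, and the 11223 that passed a filter on low counts were tested.

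Nab2 is a zinc finger protein that binds polyadenosine stretches of RNA and restricts the length of poly(A) tails. It is the fly counterpart of human ZC3H14, whose loss causes an intellectual disability, and in flies it is needed above all in neurons. A head holds neurons, glia and photoreceptors, but also fat body, muscle, haemocytes and cuticle-forming epidermis, and RNA of all of them was measured together. The question was which transcripts differ in the male head when Nab2 is missing.

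The male libraries held between 23648813 and 30751922 counts assigned to genes. Nab2 (FBgn0028471, arm 3R, 24314660 to 24318419 in the Ensembl 115 annotation of BDGP6) had 60.0, 60.1 and 64.0 CPM (counts scaled to the size of the library) in the wild-type and 3.21, 0.607 and 0.456 in the null libraries. Null library 1 thus retained 5.24% of the wild-type mean, more than the other null libraries. Markers of the head tissues were present in every male library. Summed over 12 neuronal markers, the level was 5299 to 7195 CPM in wild type and 5499 to 5991 in the null, and none of the 12 passed the test. For 12 photoreceptor markers the sums were 37299 to 39977 and 41576 to 47199 CPM, without overlap. Those of 15 glial and of 9 muscle markers overlapped between the genotypes.

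Genes counted as called when their adjusted p from edgeR's quasi-likelihood test fell below 0.05. By that rule 1114 of the 11223 genes tested were called (9.93%). Of these 549 genes were higher in null males (4.89% of those tested) and 565 lower (5.03%), and these shares are the background for each group of genes. At a change of at least 2-fold, 209 were higher (1.86%) and 214 lower (1.91%). The median log2 change over all genes tested was 0.00. In 1108 of the 1114 calls the groups of libraries did not overlap, so a lack of overlap adds little to a call. Of the calls, 487 held in each of the 6 fits that left out 1 male library, 271 of them higher and 216 lower. Over all genes the count of calls was 624 without wild-type library 1, 719 without wild-type library 2, 652 without null library 1 and 693 without null library 3. Of the 141 named genes with a call, 81 kept it in all 6 fits, and a loss is given beside each of these genes described here. The 57 gene lists held 248 of the calls, among 1693 list genes tested (14.6%), against 866 of 9530 genes in no list (9.09%). The lists were chosen with earlier results of these data known, so their higher share is no support of its own.

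The spread behind these tests was estimated over all 12 libraries, and one female library stood apart. The log2 CPM of null female library 1 correlated with those of its replicates at 0.986 and 0.988, against 0.993 to 0.998 within all other replicate pairs. An alternative added after the data were seen left it out and gave 1852 male calls, 920 higher and 932 lower, among them all 1114 with the same sign. In that fit the heat shock count of 15 was the same, 27 in place of 24 immune-induced peptide genes were higher, and 12 in place of 5 proteasome genes were lower. For neuropeptides 12 in place of 7 genes were higher. For channels and transmitter receptors 8 were higher and 5 lower, in place of 2 and 1, and for constitutive chaperones 6 in place of 1 were higher.

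**Figure D1:**
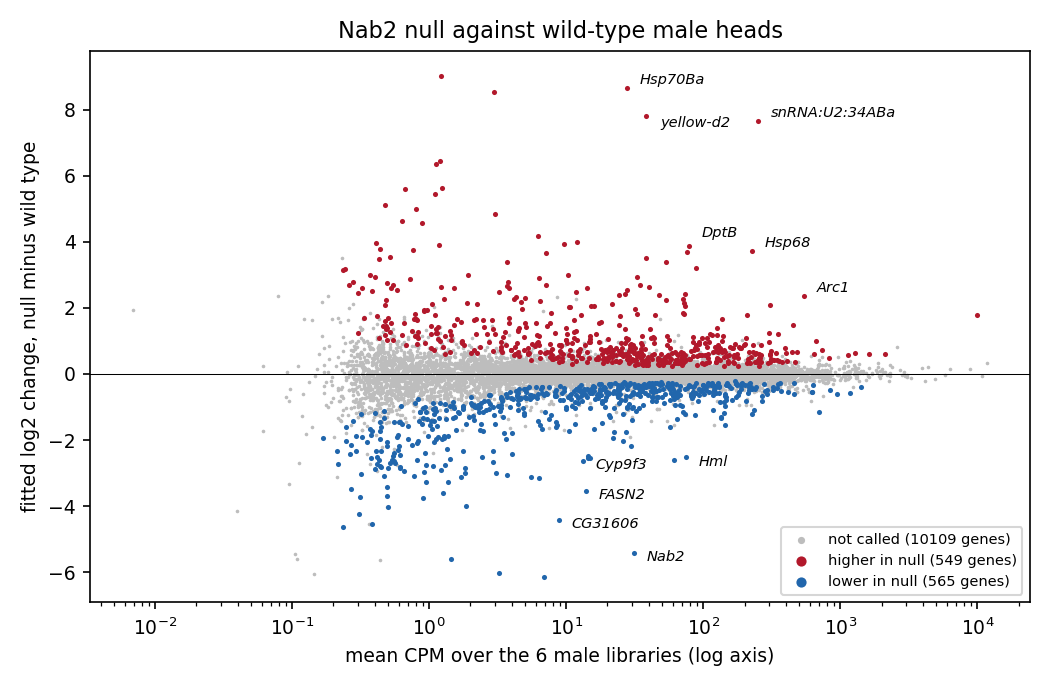
Fitted log2 change (null minus wild type, vertical axis) against mean CPM over the 6 male libraries (horizontal log axis), 1 point for each of the 11223 genes tested. Red points are the 549 genes called higher in the null, blue points the 565 called lower and grey points those not called. The label Nab2 marks the targeted gene, at -5.41.

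The inducible heat shock genes moved as a block. Of 17 such genes in the files 16 were tested, 15 were higher in null males and none was lower, with a median log2 change of 2.81. These genes encode chaperones that are kept low in unstressed cells and rise when proteins misfold. Hsp68 (arm 3R, 24055080 to 24057310) stood at 27.7, 31.3 and 36.9 CPM in wild-type and at 561, 350 and 352 CPM in null libraries. Its mean was 32.0 ± 4.65 CPM (SD, n = 3) against 421 ± 121 (SD, n = 3), a log2 change of 3.72 (SE 0.25, edgeR adjusted p 2.80e-06). Every null library thus lay far above the highest wild-type library. Hsp68 lies on the same arm as Nab2, 257349 bases from it with 44 tested genes in between.

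The Hsp70 copies behaved likewise. Hsp70Bb had 5.14, 5.75 and 7.52 CPM in wild-type and 77.6, 43.1 and 88.96 CPM in null males, a log2 change of 3.51 (SE 0.28, edgeR adjusted p 1.27e-05). Hsp70Bbb rose by 3.67 (SE 0.33, edgeR adjusted p 4.10e-05). The Hsp70 genes are near-identical copies, so the division of reads among them is uncertain. The small heat shock genes Hsp26, Hsp27 and l(2)efl rose by 3.20, 3.01 and 2.38, and the more abundant Hsp83, the Hsp90 chaperone, by 0.61 (edgeR adjusted p 0.00735). Those 4 genes lie outside the naming rule and were chosen after their values were seen. Summed over the 17 genes, the level was 1607, 1652 and 1832 CPM in wild-type and 4104, 3595 and 3087 CPM in null libraries. The count of 15 was the same in each of the 12 alternative analyses.

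Other protective genes showed smaller shifts. MtnA, which encodes a metal-binding metallothionein, was at 73.1, 74.5 and 62.9 CPM in wild-type and 215, 176 and 158 CPM in null males, a log2 change of 1.38 (SE 0.19, edgeR adjusted p 8.23e-04). Sod2, the mitochondrial superoxide dismutase, rose by 0.49 (SE 0.10, edgeR adjusted p 0.00974). With Jafrac1 and MtnD, whose calls were each lost in 5 of the 6 fits leaving out 1 male library (log2 0.32 to 0.37 and 1.29 to 1.88, edgeR adjusted p 0.0691 to 0.103 and 0.0655 to 0.156), 4 of 16 genes of this list were higher and none lower. The count was 2 without any one of the wild-type libraries or null libraries 1 and 2. Among 24 constitutive chaperones and genes of the unfolded protein response, 1 was higher and 3 were lower. The higher one was Hsc70-3, the chaperone BiP of the endoplasmic reticulum, at 286, 295 and 263 CPM in wild-type and 394, 359 and 383 CPM in null males (log2 0.43, SE 0.08, edgeR adjusted p 0.00656). The lower count was 1 without wild-type library 2 or null library 1 or 3 or with the males alone. None of 5 tested Turandot genes and none of 17 genes of JNK and JAK-STAT signalling was called.

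Genes of humoral immunity formed the second large group. Of 38 genes for antimicrobial and other immune-induced peptides, 34 were tested, 24 were higher in null males and 3 lower, with a median log2 change of 1.43. Their summed level was 1867, 2291 and 2144 CPM in wild-type and 4805, 3982 and 4018 CPM in null libraries, without overlap. DptB (arm 2R, 18867391 to 18867895), a diptericin secreted in response to Gram-negative bacteria, was at 1.80, 13.5 and 14.8 CPM in wild-type and 143, 133 and 169 CPM in null males. That is 10.04 ± 7.16 against 148 ± 18.8 CPM (SD, n = 3 each), a log2 change of 3.88 (SE 0.64, edgeR adjusted p 0.00273). The wild-type libraries differed among themselves, with library 1 the lowest, and all lay far below the null libraries.

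AttA, an attacin, followed the same order, with 1.80, 10.5 and 15.8 CPM in wild-type and 128, 55.6 and 109 CPM in null males. This was a log2 change of 3.37 (SE 0.56, edgeR adjusted p 0.00295), and of 3.96 without wild-type library 3. Listericin rose by 2.68 (SE 0.34, edgeR adjusted p 4.79e-04). Not every peptide gene rose. The defensin gene Def had a log2 change of -1.74 (SE 0.37, edgeR adjusted p 0.0125), and Drsl2 and Drsl4 fell by 1.06 and 0.74. These 3 were chosen after their values were seen. Without null library 3 Def lost its call (-1.46, edgeR adjusted p 0.0506), and without null library 1 its change was -2.53. Both Drsl calls were lost without wild-type library 3 or null library 1 or 3, with log2 changes of -1.04 to -0.62, and that of Drsl2 also without wild-type library 1 (-1.10). The count of higher genes was 15 without wild-type library 1 and 17 to 21 in the other fits that left out 1 library. The count of lower genes was 1 without wild-type library 3 or null library 1 and 0 without null library 3.

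Receptors and regulators that lie upstream of these peptides were examined next. Of 31 tested components of the Toll and Imd pathways, the 2 main routes from bacterial sensing to peptide genes, 7 were higher and 2 lower. The largest stable change was in pirk, an inhibitor of the Imd receptor, at 6.21, 7.51 and 10.6 CPM in wild-type and 27.6, 43.7 and 33.4 CPM in null males (log2 2.10, SE 0.25, edgeR adjusted p 3.19e-04). PGRP-SB1, a peptidoglycan-degrading amidase, was at 51.6, 53.0 and 53.5 CPM in wild-type and 110, 117 and 117 CPM in null libraries. It rose by 1.12 (SE 0.12, edgeR adjusted p 1.78e-04), and PGRP-SA, a Toll pathway sensor, by 1.16 (SE 0.22, edgeR adjusted p 0.00602). PGRP-LE, an intracellular sensor of the Imd pathway chosen after its values were seen, fell by 0.79 (SE 0.11, edgeR adjusted p 0.00109). PGRP-SC2 rested on null library 1, which held 7.53 CPM against 1.30 and 2.07 in the others. Its log2 change was 2.12 (edgeR adjusted p 0.0476) and 1.01 without that library, and the call was also lost without any one of the wild-type libraries (1.98 to 2.20). Without wild-type library 1 or null library 1, 4 pathway genes were higher, and the lower count was 1 in each fit but the one without wild-type library 3.

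**Figure D2:**
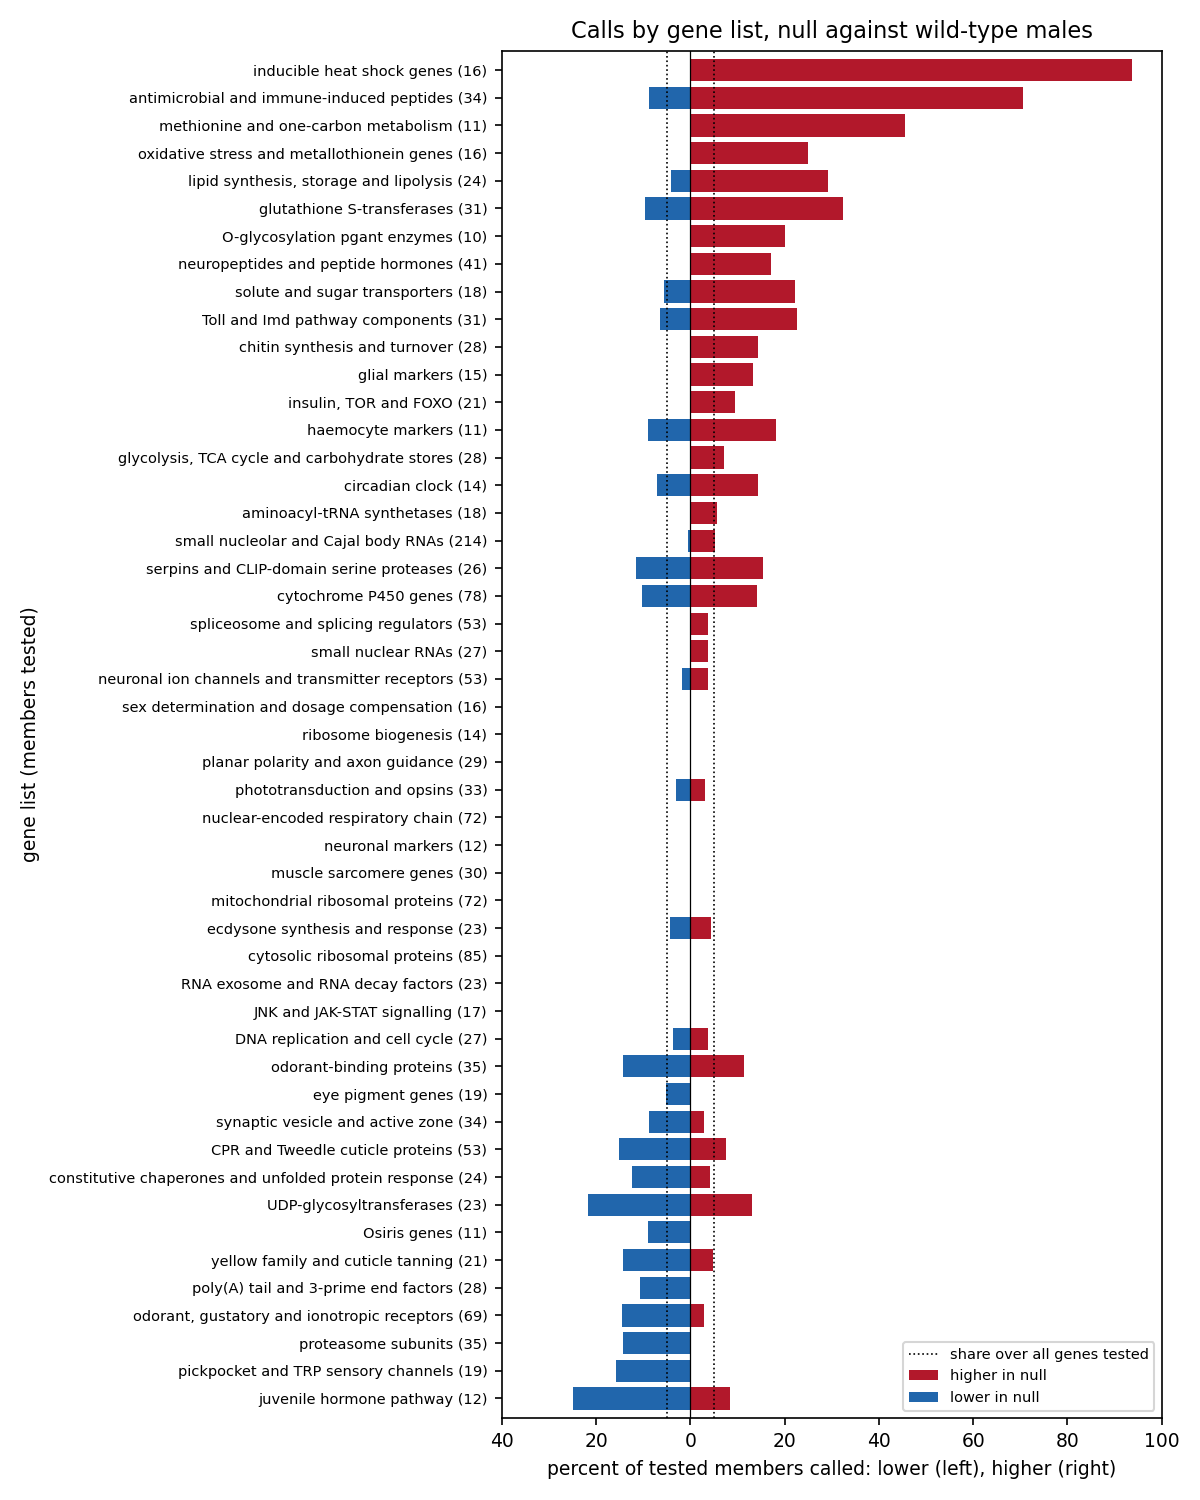
Percent of tested members called higher (red, to the right) and lower (blue, to the left) in null males for each list with at least 10 tested members, with the number tested in brackets. The list of testis and accessory gland genes is not shown. Dotted lines mark the shares over all genes tested, 4.89% higher and 5.03% lower. The inducible heat shock list reaches farthest to the right, with 15 of 16 members higher.

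Metabolic genes shifted in a narrower set. In methionine and one-carbon metabolism, which passes methyl groups through folate and S-adenosylmethionine, 5 of 11 genes were higher and none lower, with a median log2 change of 0.52. Gnmt (arm 3R, 12674608 to 12676084), the enzyme that uses up S-adenosylmethionine by methylating glycine, was at 11.5, 16.4 and 5.36 CPM in wild-type and 89.5, 38.9 and 77.6 CPM in null males. Its mean was 11.1 ± 5.52 against 68.7 ± 26.5 CPM (SD, n = 3 each), a log2 change of 2.63 (SE 0.40, edgeR adjusted p 0.00160). The groups did not overlap, and null library 2 was the lowest of its group. The folate enzyme gene pug was at 182, 195 and 185 against 312, 267 and 446 CPM and rose by 0.87 (SE 0.16, edgeR adjusted p 0.00522).

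Sardh, the enzyme that breaks down the product of Gnmt, and the folate enzyme gene Nmdmc had log2 changes of 1.55 and 0.98 (edgeR adjusted p 0.0152 and 0.0222). Both calls were lost without wild-type library 3 or null library 3, that of Sardh also without null library 1 and that of Nmdmc also without wild-type library 1. The log2 changes in those fits were 1.34 to 1.43 and 0.77 to 1.05. The count of higher genes was 3 without wild-type library 1 or 3 or null library 1, and 2 without null library 3.

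In lipid metabolism 7 of 24 tested genes were higher and 1 was lower. The lower gene was FASN2 (arm 2L, 3043947 to 3056143), a fatty acid synthase of the oenocytes, at 24.1, 25.7 and 26.8 CPM in wild-type and 1.65, 2.06 and 2.86 CPM in null males. Its level was 25.5 ± 1.36 against 2.19 ± 0.616 CPM (SD, n = 3 each), a log2 change of -3.54 (SE 0.17, edgeR adjusted p 3.33e-07). FASN1, the synthase of the fat body, moved the other way, from 1019, 997 and 1021 to 1734, 1311 and 1617 CPM (log2 0.62, SE 0.11, edgeR adjusted p 0.00511). It and whd, the carnitine palmitoyltransferase that admits fatty acids to mitochondria, were chosen after their values were seen, and whd rose by 0.67 (edgeR adjusted p 0.00233). The triglyceride lipase gene bmm rose by 0.69 (SE 0.12, edgeR adjusted p 0.00295). Synthesis and breakdown genes were thus both among the higher genes. Without wild-type library 1 the count of higher genes was 4. Desat1, a fatty acid desaturase, had a log2 change of 1.01 (edgeR adjusted p 0.0304), and its call was lost without wild-type library 1 or 3 or null library 1 or 3 (0.82 to 1.07).

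Secreted products of the fat body were examined next. Lsp2, a larval serum storage protein made by the fat body, was at 75.2, 86.6 and 119 CPM in wild-type and 305, 278 and 382 CPM in null males (log2 1.78, SE 0.33, edgeR adjusted p 0.00546). Mtp, which loads lipid onto lipoproteins, rose by 0.61 (SE 0.12, edgeR adjusted p 0.00656). They were the only 2 of 9 tested genes of this list with a call, and the count was 2 in each alternative. Obp99b, an odorant-binding protein of the head fat body, was at 14.2, 15.8 and 29.3 against 73.0, 50.9 and 81.8 CPM (log2 1.79, SE 0.28, edgeR adjusted p 0.00190). Summed over 8 fat body markers, the level was 2826, 3132 and 1818 CPM in wild-type and 5720, 2794 and 4096 CPM in null libraries, with an overlap through null library 2. The part of fat body content in these values was not tested, and in bulk RNA more cells of a type and more RNA per cell cannot be told apart.

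Core energy metabolism showed few calls. None of 72 tested nuclear genes of the respiratory chain passed, with a median log2 change of -0.02. In glycolysis, the TCA cycle and carbohydrate storage 2 of 28 genes were higher. They were Zw, the first enzyme of the pentose phosphate pathway (log2 0.49, edgeR adjusted p 0.0116, and 0.46 with edgeR adjusted p 0.0548 without wild-type library 1), and Mdh1. The Mdh1 change of 0.39 (edgeR adjusted p 0.0398) lost its call in 5 of the 6 fits leaving out 1 library (0.31 to 0.43). Without wild-type library 1 the count was 0, and it was 1 without wild-type library 2 or 3 or null library 1 or 3. Among solute and sugar transporters 4 of 18 were higher and 1 lower, with the lower one lost without any one library except null library 2. They included the sugar transporter gene Tret1-2 (log2 0.98, SE 0.17, edgeR adjusted p 0.00368) and NAAT1, an amino acid transporter, with 37.3, 42.7 and 33.7 against 77.0, 60.7 and 72.8 CPM (log2 0.89, SE 0.12, edgeR adjusted p 6.48e-04).

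**Figure D3:**
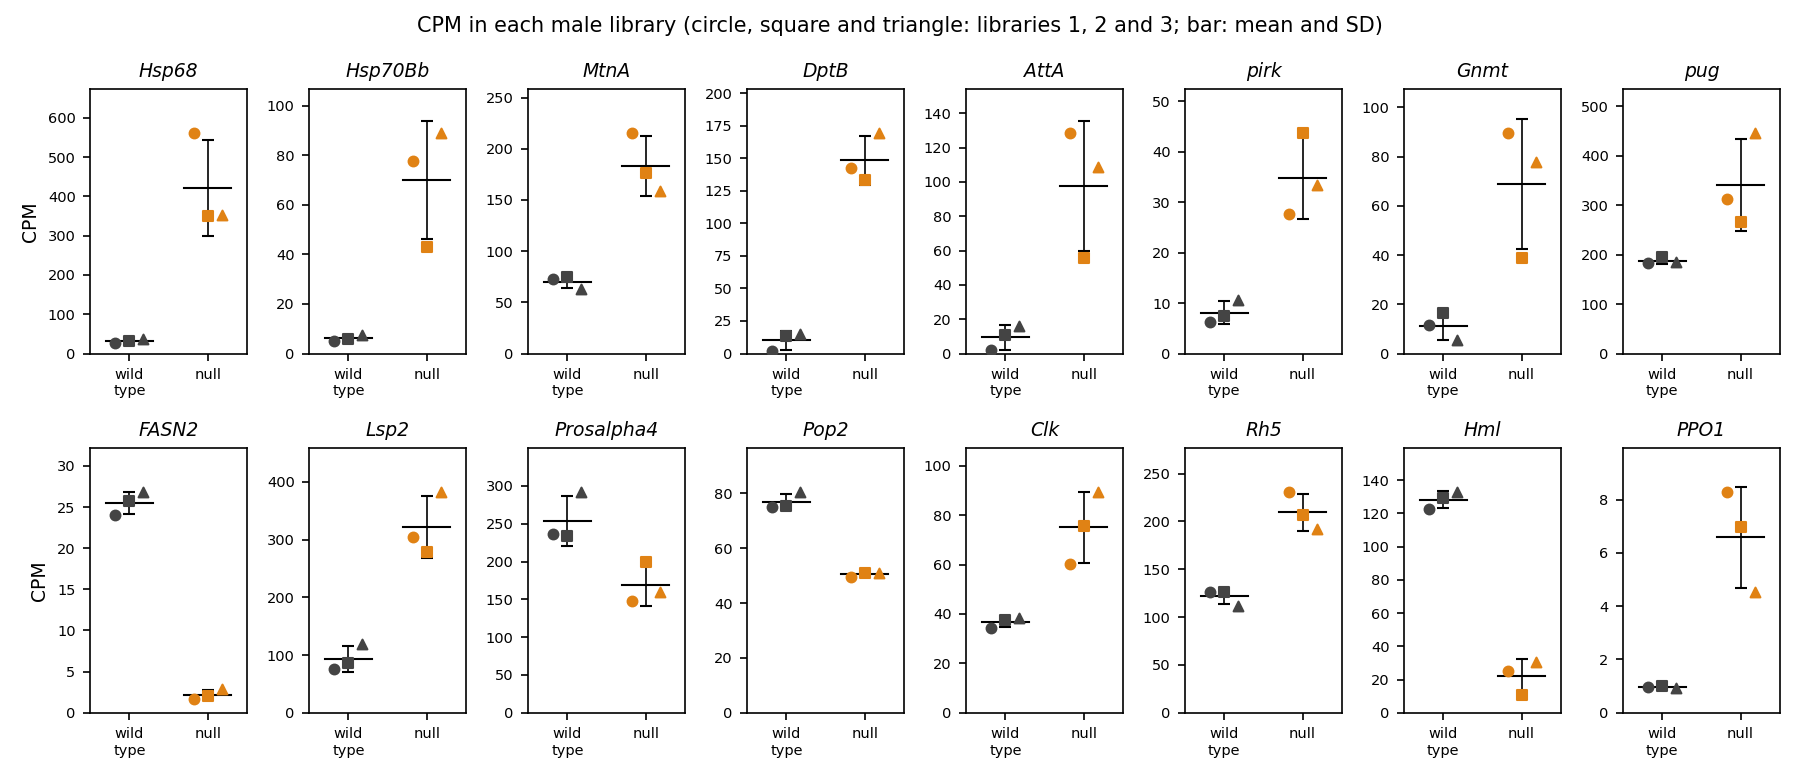
CPM (vertical axes, from 0) of 16 genes in the 3 wild-type (grey) and 3 null (orange) male libraries, with a horizontal bar for the mean and a vertical bar for the SD. Symbols mark libraries 1, 2 and 3 of a group. In none of the 16 panels do the groups overlap, which the rule that named these genes required.

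Detoxification enzymes moved in both directions. Of 78 tested cytochrome P450 genes, which encode oxidases of hormones and foreign compounds, 11 were higher and 8 lower. Of 31 glutathione S-transferase genes 10 were higher and 3 lower, and of 23 UDP-glycosyltransferase genes 3 were higher and 5 lower. Cyp9f3 fell from 21.8, 21.7 and 25.4 CPM to 4.16, 3.32 and 3.69 CPM (log2 -2.62, SE 0.15, edgeR adjusted p 1.58e-06). Cyp4p1 went the other way, from 19.2, 19.4 and 17.5 to 108, 110 and 48.0 CPM (log2 2.24, SE 0.29, edgeR adjusted p 5.69e-04). Both groups of libraries were separate for either gene.

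A pair of neighbours on arm 2R moved apart. Cyp6a17 (14873953 to 14875739) was at 23.5, 32.1 and 24.1 CPM in wild-type and 127, 103 and 123 CPM in null males, a log2 change of 2.14 (SE 0.17, edgeR adjusted p 1.22e-05). Cyp6a23 (14875829 to 14877654), the next gene on the same strand, chosen after its values were seen, was at 75.9, 72.6 and 111 against 29.6, 27.1 and 28.6 CPM and fell by 1.603 (SE 0.17, edgeR adjusted p 1.29e-04). The pair are close paralogs, so the division of reads between them is uncertain. Cyp12d1-d had 0, 0.0927 and 0.0337 CPM in wild-type and 3.49, 2.23 and 0.746 CPM in null males. The ratio of its summed counts, 162 against 4, was 48.6 after scaling for depth, with a 95% counting interval of 18.6 to 181. It too has a near-identical copy, and its fitted log2 change of 5.46 was 6.60 without wild-type library 2.

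Transferases also moved both ways. GstE4 (arm 2R, 18403248 to 18404086) fell from 62.9, 40.7 and 41.4 to 14.0, 11.8 and 6.26 CPM (log2 -2.18, SE 0.38, edgeR adjusted p 0.00365), and GstE5 fell by 1.04 (SE 0.20, edgeR adjusted p 0.00698). GstE8 rose by 1.33 (SE 0.22, edgeR adjusted p 0.00258) and GstD5, which lies on arm 3R, by 2.62 (SE 0.39, edgeR adjusted p 0.00151). Among UDP-glycosyltransferases CG15661 was at 132, 124 and 108 against 61.0, 47.7 and 45.7 CPM (log2 -1.23, SE 0.16, edgeR adjusted p 5.26e-04). For glutathione S-transferases the higher count was 6 without null library 1, and the lower count was 3 in each fit. For P450 genes the lower count was 5 without any one wild-type library or null library 1. For UDP-glycosyltransferases the higher count was 1 without wild-type library 1 or null library 3 and 0 without wild-type library 2 or 3 or null library 1. It was 1 under total count scaling.

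Proteasome genes leaned downwards, with few calls. All 35 tested proteasome subunit genes had a negative log2 change, with a median of -0.37, and 5 of them were called lower. The proteasome degrades ubiquitin-tagged proteins. Prosalpha4 was at 237, 233 and 292 CPM in wild-type and 148, 200 and 159 CPM in null libraries. That is a log2 difference of -0.59 (SE 0.12, edgeR adjusted p 0.00939). Over all 48 listed genes the sums were 9042, 9058 and 11606 CPM in wild-type and 6073, 8730 and 7417 CPM in null libraries. Wild-type library 3 was the highest and null library 2 the highest of its group, and the ranges did not overlap.

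The number of lower proteasome genes depended on which library was in the fit. It was 3 without wild-type library 1, 1 without wild-type library 3, null library 1 or null library 3, and 21 without null library 2. It was 2 when the male libraries were fitted alone, 10 under total count scaling and 13 under DESeq2. Of the other called subunits, Rpn3 (-0.61) and Rpt6R (-0.88) each lost the call without wild-type library 3 or null library 1 or 3 (-0.61 to -0.45 and -0.80 to -0.66 in those fits). Rpt2 had a change of -0.55 and lost its call without wild-type library 1 or 3 or null library 1 or 3 (-0.61 to -0.40). Rpt4, chosen after its values were seen, had a change of -0.45 (edgeR adjusted p 0.0424). Its call was lost in each fit that left out 1 library but the one without null library 2 (-0.52 to -0.32). Translation genes gave a single call. None of 85 cytosolic and 72 mitochondrial ribosomal protein genes and none of 14 ribosome biogenesis genes passed, with medians of 0.06, 0.00 and 0.16. Without null library 1, 1 cytosolic ribosomal protein gene, 1 biogenesis gene and 1 respiratory chain gene were higher. AspRS was the only one of 18 aminoacyl-tRNA synthetase genes with a call, at 72.3, 77.0 and 73.8 against 110, 120 and 104 CPM (log2 0.59, SE 0.09, edgeR adjusted p 0.00205).

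**Figure D4:**
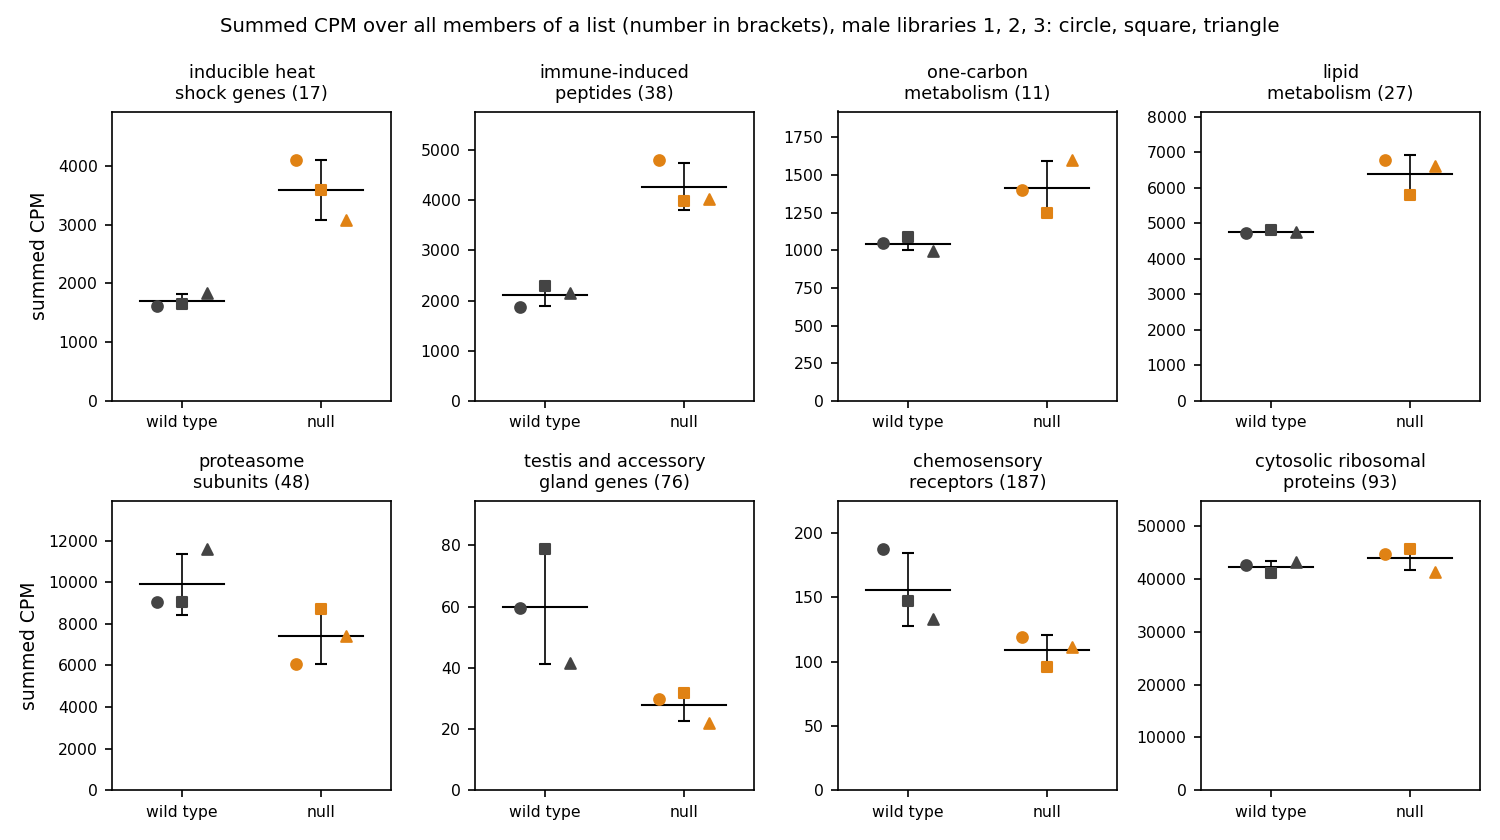
Summed CPM (vertical axes, from 0) over all members of 8 gene lists in each male library, wild type in grey and null in orange, with the mean and SD as bars and the number of genes summed in brackets. The sums of heat shock genes, immune-induced peptides, one-carbon metabolism, lipid metabolism, proteasome subunits, testis genes and chemosensory receptors do not overlap between the genotypes, and those of cytosolic ribosomal proteins do. A lack of overlap is not particular to lists with many calls. The ribosome biogenesis list, not drawn here and with 0 of 14 genes called, summed to 436 to 443 CPM in wild type and 457 to 525 CPM in the null.

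Genes of the RNA machinery in which Nab2 acts were mostly not called. Of 28 poly(A) tail and 3-prime end factors, 3 were lower, 1 of them Nab2 itself. The second was Pop2, a catalytic subunit of the CCR4-NOT complex that shortens poly(A) tails, at 75.0, 75.3 and 80.4 CPM in wild-type and 49.5, 51.1 and 51.0 CPM in null males. Its mean was 76.9 ± 3.03 against 50.5 ± 0.909 CPM (SD, n = 3 each), a log2 change of -0.61 (SE 0.07, edgeR adjusted p 3.00e-04). The third, su(f), a cleavage factor subunit, had a change of -0.30 (edgeR adjusted p 0.0493) that lost its call in each of the 6 fits leaving out 1 library (-0.32 to -0.27, edgeR adjusted p 0.0954 to 0.146). None of 23 genes of the exosome and RNA decay, 8 of the m6A machinery and 16 of sex determination and dosage compensation was called.

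Of 53 spliceosome and splicing genes, 2 were higher. SmB, a core protein of spliceosomal particles, was at 5.51, 4.82 and 4.32 CPM in wild-type and 14.2, 12.0 and 8.70 CPM in null males (log2 1.25, SE 0.22, edgeR adjusted p 0.00446). For ps, a splicing regulator, the change was 0.32 (edgeR adjusted p 0.0401), with the call lost without wild-type library 1 or 2 or null library 1 or 3 (0.27 to 0.32). Among 27 tested small nuclear RNA genes the one call was snRNA:U2:34ABa, which was higher in null males. It stood at 2.31, 2.90 and 2.19 CPM in wild-type and 493, 603 and 402 CPM in null libraries (log2 7.65, SE 0.47, edgeR adjusted p 1.86e-06). It is 1 of several near-identical U2 genes, so its share of the U2 reads is uncertain. Summed over all 32 small nuclear RNA genes, the ranges overlapped, at 16578 to 18891 CPM in wild type and 14757 to 19001 CPM in the null.

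Small nucleolar RNAs, which guide modification of ribosomal RNA and mostly sit in introns of host genes, gave 11 higher and 1 lower of 214 tested. This is 5.14% and 0.467%, so the higher share was close to that over all genes. The 2 strongest changes were in single genes of arm 2R. The RNA snoRNA:Psi28S-1153 was at 1.80, 1.51 and 0.945 CPM in wild-type and 22.3, 19.0 and 26.4 CPM in null males (log2 3.99, SE 0.29, edgeR adjusted p 6.29e-06). The RNA snoRNA:Psi28S-3316a fell from 29.2, 22.8 and 21.4 to 6.08, 4.05 and 2.53 CPM (log2 -2.53, SE 0.27, edgeR adjusted p 1.46e-04). Without wild-type library 1, 2 or 3 or null library 1 or 2 the higher count was 4, 5, 4, 2 and 5.

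The most abundant called transcript was a noncoding RNA. The gene noe (arm 3L, 17400272 to 17401348), annotated as a long noncoding RNA and chosen after its values were seen, was at 4587, 4800 and 4168 CPM in wild-type and 16641, 16258 and 13386 CPM in null males. This is a log2 rise of 1.77 (SE 0.12, edgeR adjusted p 5.37e-06), and all null libraries lay above all wild-type libraries. Arc1, whose protein forms capsid-like particles at synapses and which was likewise chosen after its values were seen, was at 185, 191 and 160 against 880, 810 and 1036 CPM (log2 2.35, SE 0.15, edgeR adjusted p 1.86e-06).

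Genes of synapses and of neuronal channels gave few calls. Of 34 synaptic vesicle and active zone genes 1 was higher and 3 were lower, 2.94% and 8.82%, and of 53 ion channel and transmitter receptor genes 2 were higher and 1 lower. The higher synaptic gene was cac, a subunit of the presynaptic calcium channel, at 0.59 (edgeR adjusted p 0.0142), lost in 4 of the fits leaving out 1 library (0.54 to 0.55). VGAT, the vesicular transporter of GABA, was at 210, 202 and 220 CPM in wild-type and 173, 167 and 168 CPM in null males (log2 -0.32, SE 0.07, edgeR adjusted p 0.0124). The acetylcholine receptor subunit gene nAChRbeta3 fell by 0.61 (SE 0.13, edgeR adjusted p 0.00974). The synaptic list had 1 lower gene, VGAT, in each fit that left out 1 library, and the channel list had between 0 and 3 higher genes. None of 29 genes of planar polarity and axon guidance was called. SIFaR, the receptor of the neuropeptide SIFamide, chosen after its values were seen, rose from 15.2, 13.9 and 14.5 to 46.9, 57.9 and 49.0 CPM (log2 1.82, SE 0.27, edgeR adjusted p 0.00138).

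Of 41 neuropeptide genes 7 were higher and none lower. They were Ilp3, Capa, Crz and CCHa2, which the rule named, Pdf, and AstC and Dh44, which were chosen after their values were seen. The largest change was that of the insulin-like peptide gene Ilp3, at 13.8, 13.7 and 16.1 against 19.4, 27.6 and 25.3 CPM (log2 0.73, SE 0.17, edgeR adjusted p 0.0161). AstC kept its call in all 6 fits (0.50, edgeR adjusted p 0.00903). Ilp3 lost its call without wild-type library 1 or 2 or null library 2 or 3 (0.62 to 0.69), and CCHa2 without wild-type library 1 (0.51). Capa, Pdf and Dh44 lost theirs in 5 fits and Crz in 6, with log2 changes of 0.50 to 0.74, 0.33 to 0.52, 0.36 to 0.47 and 0.48 to 0.64. The count was 1 without wild-type library 1, 2 without wild-type library 2 or null library 3, and 3 without wild-type library 3 or null library 1.

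In the clock list 2 of 14 genes were higher and 1 lower. The lower gene was Pdfr (-0.28), and no clock gene was lower in any fit that left out 1 library. The second higher gene was Pdf, and without its call the higher count was 1 in each such fit but the one without null library 2. Clk, the activator at the head of the circadian feedback loop, was at 34.5, 37.5 and 38.4 CPM in wild-type and 60.3, 75.5 and 89.2 CPM in null males. That is 36.8 ± 2.04 against 75.0 ± 14.5 CPM (SD, n = 3 each), a log2 change of 1.03 (SE 0.15, edgeR adjusted p 0.00147). The labels used here give no time of day for the collection. Of 15 glial markers 2 were higher. They were wrapper, a glial adhesion molecule, at 12.4, 13.1 and 9.51 against 25.6, 17.7 and 25.8 CPM (log2 0.98, SE 0.15, edgeR adjusted p 0.00198), and Tret1-1 (0.47), whose call was lost without null library 1 or 3 (0.43 and 0.44).

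In the eye, 1 of 33 phototransduction genes was higher and 1 lower. Rh5, the blue-sensitive opsin of a subset of inner photoreceptors, was at 126, 127 and 112 CPM in wild-type and 230, 206 and 192 CPM in null males. It rose by 0.78 in log2 (SE 0.12, edgeR adjusted p 0.00135), with no overlap. Galphaq, the G protein of the visual cascade, had a change of -0.33 (edgeR adjusted p 0.0259), lost in 5 fits (-0.36 to -0.28). Of 19 eye pigment genes bw alone was called, a transporter subunit for red pigment precursors, at 98.4, 102 and 101 against 54.5, 74.9 and 75.3 CPM (log2 -0.56, SE 0.11, edgeR adjusted p 0.00939).

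Chemosensory receptor genes gave more lower than higher calls. Of 187 odorant, gustatory and ionotropic receptor genes 69 were tested, 10 were lower and 2 higher, with a median log2 change of -0.61. Receptors of low count can pass the filter through wild-type libraries alone, so the lower count and the median can partly follow from the filter. Summed over all 187, the level was 188, 147 and 133 CPM in wild-type and 119, 95.6 and 112 CPM in null libraries, without overlap. Or49b, an odorant receptor, was at 2.94, 2.41 and 1.99 CPM in wild-type and 0.353, 0.445 and 0.414 CPM in null males (log2 -2.58, SE 0.26, edgeR adjusted p 9.15e-05). Ir56d, an ionotropic receptor of taste neurons, fell by 1.58 (SE 0.25, edgeR adjusted p 0.00195). Among the co-receptors, which many receptor types share, Ir25a was at 11.3, 11.1 and 8.87 against 6.35, 6.07 and 7.17 CPM (log2 -0.67, SE 0.12, edgeR adjusted p 0.00383).

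The other co-receptors were less stable. Ir8a had a log2 change of -1.97 (edgeR adjusted p 0.0138) and lost its call without wild-type library 1 (-1.68, edgeR adjusted p 0.0543). Orco had 51.0, 31.6 and 25.3 against 20.2, 12.8 and 13.7 CPM, a log2 change of -1.21 (edgeR adjusted p 0.0359). Its call was lost without wild-type library 1 or 2 or null library 2 or 3 (-1.29 to -0.87). Ir76b had a change of -0.73 (edgeR adjusted p 0.0305), lost without wild-type library 1 or 2 or null library 1 or 2 (-0.76 to -0.59). Ir25a, Ir76b and Orco were chosen after their values were seen. The lower count was 5 without wild-type library 1 and 6 without null library 2 or 3, and the higher count lay between 0 and 5. Among 19 tested channels of the pickpocket and TRP families 3 were lower, with ppk29, a channel of contact pheromone neurons, at -1.28 (SE 0.26, edgeR adjusted p 0.00830). That count was 1 without wild-type library 1 or null library 1 or 3.

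Odorant-binding proteins, which are secreted around sensory neurons and elsewhere, gave 4 higher and 5 lower of 35 tested. Obp47a fell from 3.27, 2.66 and 3.88 to 0.353, 0.567 and 0.290 CPM (log2 -3.001, SE 0.34, edgeR adjusted p 2.51e-04). Obp8a rose from 1.91, 1.39 and 0.978 to 9.68, 5.59 and 6.26 CPM (log2 2.34, SE 0.30, edgeR adjusted p 5.45e-04). The lower count was 2 without wild-type library 3, 3 without null library 1 and 1 without null library 3, and it was 8 under total count scaling or with the males alone and 9 under DESeq2.

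Cuticle genes moved both ways. Of 53 tested genes of the CPR and Tweedle cuticle protein families 4 were higher and 8 lower. Cpr11B was at 101, 101 and 95.9 CPM in wild-type and 41.5, 33.2 and 58.1 CPM in null males (log2 -1.16, SE 0.19, edgeR adjusted p 0.00293), and Cpr50Cb fell by 1.48 (SE 0.27, edgeR adjusted p 0.00480). The lower count was 5 without wild-type library 3 or with the males alone, and 4 without null library 1 or 3. In the tanning list, the largest rise was that of yellow-d2 (arm 2R, 23381197 to 23382591), from at most 0.463 to between 57.7 and 88.1 CPM. The 3 lower genes encode enzymes of the amine pathway that hardens and colours cuticle. One was amd, at 38.3, 38.3 and 35.0 against 15.1, 23.7 and 15.4 CPM (log2 -1.04, SE 0.14, edgeR adjusted p 8.22e-04). The others, b (-0.67, edgeR adjusted p 0.0232) and Ddc (-0.38, edgeR adjusted p 0.0471), lost their calls in 3 and 6 of the fits leaving out 1 library, with changes of -0.64 to -0.48 and -0.44 to -0.29. Without wild-type library 3 or null library 1 the lower count was 1, and it was 5 under total count scaling or DESeq2.

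The 4 higher genes of chitin synthesis and turnover all belonged to the imaginal disc growth factors, secreted chitinase-like proteins without known enzyme activity. Idgf4 was at 278, 279 and 314 CPM in wild-type and 500, 488 and 495 CPM in null males (log2 0.77, SE 0.08, edgeR adjusted p 1.26e-04). Idgf1, Idgf6 and Idgf3 rose by 0.88, 0.81 and 0.57 (edgeR adjusted p 0.00291, 0.00591 and 0.00656). No gene of the 28 tested was lower. The higher count was 4 in each fit that left out 1 library, and without null library 2 the lower count was 3.

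Hormone genes gave scattered calls. Of 12 juvenile hormone genes 3 were lower and 1 was higher. Jhedup, related to the juvenile hormone esterase, was at 265, 175 and 205 CPM in wild-type and 88.8, 76.9 and 53.9 CPM in null males (log2 -1.55, SE 0.28, edgeR adjusted p 0.00420). The hormone's synthetic enzyme gene jhamt had a change of -1.53 (edgeR adjusted p 0.0124), lost without null library 1 or 3 (-1.31 and -1.35). The lower count was 1 in either of those fits. The higher gene was Kr-h1, a transcription factor induced by the hormone (0.54, edgeR adjusted p 0.0429), and its call was lost in each fit that left out 1 library but the one without null library 1 (0.48 to 0.57). In the ecdysone list sad, a hydroxylase of hormone synthesis, rose from 0.808, 0.803 and 0.978 to 2.86, 2.43 and 2.40 CPM (log2 1.57, SE 0.21, edgeR adjusted p 6.71e-04). Among serpins and clip-domain proteases, which hold and drive the proteolytic cascades of haemolymph, 4 of 26 were higher and 3 lower. Spn88Eb rose by 1.57 (SE 0.27, edgeR adjusted p 0.00365) and Spn47C fell by 0.97 (SE 0.15, edgeR adjusted p 0.00193). The lower count there was 1 without wild-type library 2 or null library 1 or 3.

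Haemocyte genes changed in opposite directions. Of 11 markers 2 were higher and 1 lower. Hml (arm 3L, 13846054 to 13860001), which encodes the clotting protein hemolectin of plasmatocytes, was at 123, 129 and 133 CPM in wild-type and 25.1, 10.9 and 30.7 CPM in null males. Its mean was 128 ± 5.11 against 22.2 ± 10.2 CPM (SD, n = 3 each), a log2 change of -2.53 (SE 0.33, edgeR adjusted p 6.06e-04). PPO1 (arm 2R, 17887220 to 17889973), a prophenoloxidase of crystal cells, rose from 0.955, 0.988 and 0.911 to 8.27, 6.96 and 4.52 CPM (log2 2.79, SE 0.25, edgeR adjusted p 4.36e-05). The phagocytic receptor gene eater had a change of 0.50 (edgeR adjusted p 0.0307), lost without any one wild-type library or null library 1 (0.39 to 0.55). Without those libraries the higher count was 1. Summed over 9 haemocyte markers the level was 377 to 415 CPM in wild type and 281 to 322 CPM in the null, without overlap. That gap rested on Hml. Over all 11 markers the sums overlapped, at 1425 to 1536 CPM in wild type and 1185 to 1470 CPM in the null.

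RNA of testis and accessory gland genes, which heads should hold only in traces, was lower in null libraries. Summed over all 76 listed genes the level was 59.7, 78.8 and 41.5 CPM in wild-type and 29.8, 31.8 and 21.8 CPM in null males. On the smaller fixed marker set of 16 genes it was 15.8, 23.2 and 9.89 against 7.33, 7.004 and 4.27 CPM, with 4.66 to 6.02 CPM in the female libraries of either genotype. All 16 markers had counts in some male library. Only 18 of the 76 genes passed the filter, and 1 of them had a positive log2 change. Such genes can pass through the wild-type male libraries alone, so the 12 of them called lower are no support of their own. That count lay between 5 and 13 when 1 male library was left out. S-Lap7, a sperm leucine aminopeptidase, was at 4.63, 6.80 and 3.61 against 0.431, 1.78 and 0.166 CPM (log2 -2.65, SE 0.51, edgeR adjusted p 0.00677), and -4.03 without null library 2.

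A broader set, chosen by low female counts and with some members of that list in it, showed the same order. The 2931 genes that had some male counts and at most 3 counts in every female library summed to 219, 334 and 141 CPM in wild-type and 85.9, 108 and 66.6 CPM in null males. Of the genes with the lowest fitted changes, CG12699 and CG3213 belong to this set. Both passed the filter through the wild-type male libraries, where they were highest, so their calls are no support of their own. CG12699 fell from 2.68, 3.21 and 1.15 to 0.157, 0.405 and 0 CPM (log2 -3.61, SE 0.60, edgeR adjusted p 0.00291), and -4.79 without null library 2. For CG3213 the change was -3.76 (edgeR adjusted p 0.0190), lost without wild-type library 2 or null library 1 or 3 (-3.33 to -3.09) and -6.10 without null library 2. How much of these differences rests on traces of other tissue was not tested. The fixed gut markers showed the opposite order, at 14.9 to 18.7 CPM in wild type and 21.4 to 41.6 CPM in the null, with 1 of 5 at 0 in every male library. That order rested on Amy-p, an amylase and the only fixed gut marker called. Amy-p rose from 4.55, 7.01 and 6.07 to 35.0, 11.7 and 27.1 CPM (log2 2.06, SE 0.34, edgeR adjusted p 0.00268). Over all 41 listed gut genes the sums overlapped, at 39.0 to 45.2 CPM in wild type and 43.2 to 76.3 CPM in the null. Of the 8 tested, 1 was higher and the median log2 change was -0.05.

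Other genes at the ends of the list were not tied to a tissue. CG31606 (arm 2L, 8147611 to 8148356) fell from 12.2, 16 and 22.6 to 0.588, 1.17 and 0.622 CPM (log2 -4.41, SE 0.28, edgeR adjusted p 2.40e-06). The noncoding RNA gene CR45997 (arm 2R, 17262339 to 17262748) fell from 3.16, 3.55 and 3.71 to 0.274, 0.162 and 0.207 CPM (log2 -3.98, SE 0.30, edgeR adjusted p 8.06e-06). At the upper end, CR45923 had 2 counts over the wild-type and 165 over the null libraries, a ratio of 99.0 after scaling for depth (95% counting interval 27.0 to 825). CG18853 had 4 and 181 counts, a ratio of 54.3 (20.9 to 202). Their fitted log2 changes of 6.36 and 5.62 were 8.85 and 6.76 without wild-type library 2, which held most of the wild-type counts. Both lie on arm 2R. They passed the filter through the null libraries, where they were highest, so their calls are no support of their own.

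The remaining genes at either end were mostly near absent from one genotype. CG32706, on the X, had 0 counts in all wild-type and 183 over the null libraries, which is at least 24.1-fold higher when a floor of 3 counts is set for each wild-type library. The adjoining pseudogenes CR43696 and CR43697 of arm 3R had 1 and 2 counts over the wild-type and 441 and 177 over the null libraries. Their ratios were 529 (95% counting interval 94.5 to 20959) and 106 (29.0 to 884). Hsp70Ba, a further heat shock copy, was at 0.0367, 0.185 and 0.169 CPM in wild-type and 61.8, 31.3 and 74.1 CPM in null males (log2 8.65, SE 0.45, edgeR adjusted p 4.93e-07). All of these genes passed the filter through the null libraries, where they were highest, so their calls are no support of their own.

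Among the lowest, whe (arm X) fell from 3.41, 13.2 and 2.43 to 0.0392, 0.162 and 0.0829 CPM (log2 -6.02, SE 1.17, edgeR adjusted p 0.00713), and -4.88 without wild-type library 2. CG43679 (arm 3L) had 259 counts over the wild-type and 4 over the null libraries, a log2 change of -5.61 that was -4.95 without wild-type library 2. Its call was lost without null library 1 (-5.43, edgeR adjusted p 0.0501). CG16826 (arm 2L) rested on wild-type library 2, with 2.09, 38.02 and 0.709 CPM in wild-type and 0.274, 0.243 and 0.0414 CPM in null males. Its change of -6.16 (edgeR adjusted p 0.0373) was -2.85 without that library (edgeR adjusted p 0.176). The call was also lost without any one null library (-6.53 to -5.70) and with the males alone (edgeR adjusted p 0.0792).

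The calls were spread unevenly over the chromosomes. On arm 2R 341 of 2362 tested genes were called, 14.4%, against 10.9% on 2L, 10% (220 of 2199) on 3L, 7.34% on 3R and 6.70% on X. At a change of at least 2-fold the share on 2R was 6.22%, against 3.77% over all genes. Leaving out every gene of the 57 lists, the share on 2R was 12.9% and that on 3R 6.33%. Nab2 itself lies on 3R, and of the 200 tested genes nearest to it 6.0% were called, against 7.41% of the other genes of that arm. The labels do not say how far the Nab2ex3 and Nab2pex41 lines share the rest of their genome, so the allele and any other difference between the lines cannot be told apart.

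**Figure D5:**
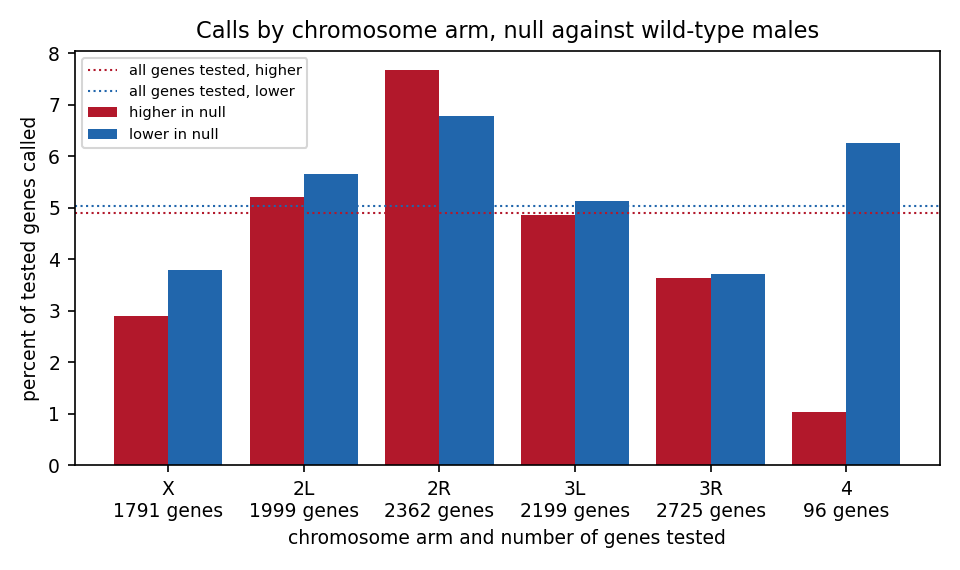
Percent of tested genes called higher (red) and lower (blue) in null males on each chromosome arm (horizontal axis, with the number of genes tested). Dotted lines mark the shares over all genes tested, 4.89% higher and 5.03% lower. Arm 2R has the tallest red bar, at 7.66%.

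The share called also varied with gene type and level. Pseudogenes were called in 14 of 53 cases, 26.4%, protein-coding genes in 9.97% and noncoding RNAs in 9.68%. In the 2806 genes of lowest mean CPM, at or under 5.27 CPM, 12.7% were called and 9.69% at least 2-fold, against 8.73% and 1.10% in the 2806 genes of highest mean CPM. Among those of lowest CPM, lower genes outnumbered higher ones, 210 to 147, and in the 2806 genes of highest mean CPM higher ones led, 137 to 108. Split into 4 classes by exonic length, the share was 7.98% in the longest genes, 11.1% in the next class and 10.2% in both shorter classes.

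The null effect in males was set beside that in females for the same genes. Of the 1114 male calls, 870 were also called in females and 244 were not. Not all of the 870 shared a direction. The log2 change of CG16826 was -6.16 in males and 3.31 in females, and that of pgant4 was 1.68 and -1.10. Of those 244, 206 had the same sign in females, 33 the opposite sign and 5 a change of 0. The test of the difference itself passed for 1 gene (0.00891%), pgant4, named after its values were seen. That test had an unadjusted p under 0.05 for 1297 genes, 11.6%. By the adjusted calls none of the groups above was shown to be particular to males, and a lack of calls does not show equal effects. Without null female library 1 the test passed for 0 genes and had an unadjusted p under 0.05 for 914.

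Some groups without a call in males had many in females. Cytosolic ribosomal proteins had a median log2 change of 0.06 in males, with 0 of 85 called, and of 0.46 in females, with 62 higher. In the test of the difference none of them passed, and 46 of 85 had an unadjusted p under 0.05. Their summed level was 46092 to 47033 CPM in wild-type females and 80897, 55150 and 56764 CPM in null females, with library 1 the highest. Without that library the female median was 0.24, 49 were higher in females, 4 were higher in males and 32 of 85 had an unadjusted p under 0.05 for the difference. The respiratory chain genes had 28 higher calls in females and 0 in males, with 0 differences that passed and 30 of 72 at an unadjusted p under 0.05. Without null female library 1 there were 11 higher calls in females, 1 in males and 15 of 72 at an unadjusted p under 0.05. The 3 yolk protein genes, the main yolk source that fat body makes in females, were all higher in null females and none was called in males. In males their changes differed in sign. Yp1 was at 1.03, 9.33 and 7.09 against 1.10, 2.06 and 2.57 CPM (log2 -1.62, edgeR adjusted p 0.117), and Yp2 at 4.30, 11.8 and 15.6 against 3.45, 6.03 and 7.33 CPM (log2 -0.92, edgeR adjusted p 0.181). Without wild-type library 1, the lowest of its group, both were called lower (-2.11 and -1.29, edgeR adjusted p 0.00735 and 0.0272), and DESeq2 over all libraries called Yp1 lower. By contrast Yp3 was at 18.9, 29.7 and 26.2 against 34.1, 35.4 and 28.01 CPM (log2 0.38, edgeR adjusted p 0.652), and its difference between the sexes did not pass (edgeR adjusted p 0.182).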

How the data were processed

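RNA was measured in 12 libraries of fly heads, in 4 groups of 3 formed by sex and genotype. Per the submitters' processing notes, reads were aligned to BDGP6 and the notes list STAR 2.5.2b-0, featureCounts 1.6.0.3 and DESeq2 2.11.40.1. The deposited count files hold raw counts in whole numbers per gene, per the file headers. The authors' deposited table of comparisons holds log2 fold changes and p-values and was used only for its calls and their directions in males, and their normalized signal table was not used. The strand setting of the counting is not given in the sources used here, so genes that overlap on opposite strands cannot be told apart. The deposited counts of null male library 3 alone carry a note on read orientation in their name. Whether its strand setting differed from that of the other libraries is not stated.

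Gene names were matched to the Ensembl 115 annotation of BDGP6 (version 6.54), 99.5% of 17737 names. Library totals of 23648813 to 30751922 counts set the precision in males, and counting intervals cover counting error only. No pair of male replicates agreed within sampling noise, but the pairs were not equally far apart. The chi-square per degree of freedom between their counts was 5.86 for wild-type libraries 1 and 2. For the other male pairs it was 25.4 to 37.5.

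In R 4.3.3, edgeR 4.0.16 kept 11223 genes by filterByExpr, applied TMM factors and fitted 1 quasi-likelihood model with a mean for each of the 4 groups. The contrasts were null minus wild type in males and the difference of this effect between males and females, each adjusted by the Benjamini-Hochberg method over all genes tested. The test was checked on simulated data. CPM are counts divided by library size times TMM factor. The SE is the size of the log2 change over the root of the F statistic, and fitted changes carry a prior count of 0.125. Ratios of counts under 5 in one group are given with an exact 95% interval.

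The genes to be named were Nab2, the 8 highest and 8 lowest of the called genes that averaged 20 counts or more and whose groups did not overlap, and up to 4 such genes of each of 57 lists, or the most abundant member where a list had none. The lists, the members and this rule were chosen with earlier results of these data known. Gene lists are described by counts and medians, with no test of a list. The alternatives were RLE and total count scaling, no filter on low counts, the 6 male libraries alone, DESeq2 1.42.0, the replicate number as a block, and leaving out each male library. Leaving out null female library 1 was added after the data were seen.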

Additional observations from a re-analysis of the deposited data

Results flagged for a closer look

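pgant4, an enzyme gene of O-linked glycosylation on arm 2L, was chosen after its values were seen. It stood at 0.220, 0.216 and 0.270 CPM in wild-type and 0.784, 0.729 and 0.787 CPM in null males, a log2 change of 1.68 (SE 0.27, edgeR adjusted p 0.00222). In females the change was -1.10 (edgeR adjusted p 0.00446). The null effect in males minus that in females was 2.78 (edgeR adjusted p 0.0483), the only difference between the sexes that passed over all genes tested. The male change kept its call in each of the 6 fits that left out 1 male library, and the call of the difference was lost in all 6, with values between 2.72 and 2.89. The adjusted p of this contrast, from edgeR or DESeq2, lay between 0.00237 and 0.310 over RLE and total count scaling, no filter, DESeq2, the replicate block and the fits leaving out 1 male library. Without null female library 1 the difference was 2.75 (edgeR adjusted p 0.0679).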

How the results depend on the processing

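With 1114 genes called in males, the count lay between 624 and 1068 over the 6 fits that left out 1 male library, with 312 to 478 higher and 296 to 590 lower. Without null female library 1, added after the data were seen, it was 1852, 920 higher and 932 lower, with all 1114 among them and 0 differences between the sexes. The count of 423 calls of at least 2-fold was within 1.5 times of its value in each alternative, the added one included, and no call changed sign in any. Total count scaling shifted the median log2 change to -0.04 and the share of higher calls from 49.3% to 42.3% (488 higher and 666 lower). The test of a difference between the sexes, with 1 call, gave 2 with no filter on low counts, 28 with DESeq2, and 0 to 2 when 1 male library was left out. Replicate numbers did not pair the samples: the deviations of same-numbered wild-type and null libraries correlated at 0.32, -0.32 and -0.07, and not every sample correlated best with its own number. The replicate block gave 676 higher and 719 lower genes, kept 1081 of the 1114 calls and gave 0 differences between the sexes. By the authors' deposited table, 1545 genes passed in males, 717 higher and 828 lower, and 1072 are shared with the calls here, all in the same direction. Among the named genes 60 lost a call in at least 1 alternative, and none reversed. Depth limits the genes of low count: 272 of the 423 calls of at least 2-fold lay among the 2806 genes of lowest mean CPM. With 3 pools per group, 1 library can decide a call near the threshold.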
